A study of Mus musculus with 19 samples.

Results

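The albumin gene family of the mouse encodes plasma carrier proteins made by the liver, and 4 of its genes lie on chromosome 5. They were chosen by the TEAD enrichment of the induced livers at 7 d, since the strongest peak of that list fell upstream of Alb, and the height of that peak is therefore a description of the choice and not a result. The peaks described here are all those of the 6 deposited lists that touched the block from 50 kb before Alb to 50 kb after Afm (chr5:90839915-91032569 of the mm9 assembly, 193 kb) or Gc with 50 kb on either side (chr5:89796549-89936790). There were 97 such peaks among 82869 in all lists, and they merged into 45 sites.

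The lists came from chromatin immunoprecipitation followed by sequencing (ChIP-seq) of whole liver of C57BL/6 mice with an antibody against YAP or against TEAD. Livers of the genotype ROSA26-rtTA-IRES-EGFP; tetYAP carried an activated YAP under doxycycline control, and were taken after 3 days (3 d) or 7 days (7 d) of doxycycline food. Control livers (WT) had the genotype ROSA26-rtTA-IRES-EGFP; WT and received the same food for 7 days. According to the study's methods, the tetYAP mice were crossed with Alb-Cre mice and with mice bearing a floxed rtTA at ROSA26. As background, Cre in this line is driven by albumin regulatory sequence, which is active in hepatocytes. The labels do not say whether the WT livers carried this Cre, and they give no age or sex. Whether the Cre transgene bears on the ratios to WT livers, the fold enrichments or the ranks at Alb was not tested. The TEAD antibody was raised against TEAD4 and, per the same methods, also recognises TEAD1 and TEAD3. There were 3 samples per group and 4 for TEAD at 7 d, which the authors merged before peaks were called. Hence each condition has 1 list, no difference below has a replicate check, and no test between conditions was possible.

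YAP is a coactivator held in the cytoplasm by the Hippo kinases. It has no DNA-binding domain and reaches chromatin mainly through the TEAD factors, which recognise the letters GGAATG. Albumin is the main plasma protein and a mark of differentiated hepatocytes. Alpha-fetoprotein, from Afp, takes its place in the fetal liver, is silenced after birth and comes back in regenerating liver and liver tumours. Afamin, from Afm, binds vitamin E, and Gc encodes the vitamin D binding protein. Alb and Afp are textbook targets of the hepatocyte factors FOXA, HNF1, HNF4 and C/EBP, and enhancers upstream of each gene are well known.

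The genes stand in a row on the plus strand. Alb (ENSMUSG00000029368.9, chr5:90889915-90905629) ends 14110 bp before Afp (ENSMUSG00000054932.3, chr5:90919740-90937933), and Afp ends 10024 bp before Afm (ENSMUSG00000029369.10, chr5:90947958-90982569). A protein-coding gene with only a Riken name, 5830473C10Rik (chr5:90990244-91007024), follows Afm within the flank. Gc (ENSMUSG00000035540.7, chr5:89846549-89886790) lies on the minus strand about 1.00 Mb before Alb.

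These 5 sequences carry most of what follows. They are 300 bases of the mm9 plus strand with the TEAD summit at 7 d at base 151, and capitals mark GGAATG or its reverse complement. The first 2 are the sites with a YAP peak called already in WT livers, and the next 2 those with one called at 7 d alone. The last is the site near Afp whose TEAD peak grew most.
Alb upstream site, chr5:90879064-90879363: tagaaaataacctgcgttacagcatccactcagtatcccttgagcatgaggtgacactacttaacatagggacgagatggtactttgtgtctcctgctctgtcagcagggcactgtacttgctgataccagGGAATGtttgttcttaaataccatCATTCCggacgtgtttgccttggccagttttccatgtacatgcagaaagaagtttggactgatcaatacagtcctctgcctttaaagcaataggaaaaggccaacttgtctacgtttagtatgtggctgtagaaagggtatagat
Alb upstream second site, chr5:90880147-90880446: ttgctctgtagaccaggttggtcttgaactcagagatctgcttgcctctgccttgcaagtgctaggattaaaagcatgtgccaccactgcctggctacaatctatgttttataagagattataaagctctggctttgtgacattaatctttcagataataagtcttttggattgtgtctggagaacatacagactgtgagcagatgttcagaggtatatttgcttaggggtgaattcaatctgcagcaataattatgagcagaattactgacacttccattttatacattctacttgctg
Alb exon 7 site, chr5:90896330-90896629: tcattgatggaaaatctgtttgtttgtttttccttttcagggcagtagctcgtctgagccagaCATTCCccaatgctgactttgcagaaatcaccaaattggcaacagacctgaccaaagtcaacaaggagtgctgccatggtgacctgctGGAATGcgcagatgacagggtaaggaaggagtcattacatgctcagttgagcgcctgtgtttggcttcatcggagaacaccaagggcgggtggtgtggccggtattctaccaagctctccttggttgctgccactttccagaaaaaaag
5830473C10Rik intron 4 site, chr5:90996812-90997111: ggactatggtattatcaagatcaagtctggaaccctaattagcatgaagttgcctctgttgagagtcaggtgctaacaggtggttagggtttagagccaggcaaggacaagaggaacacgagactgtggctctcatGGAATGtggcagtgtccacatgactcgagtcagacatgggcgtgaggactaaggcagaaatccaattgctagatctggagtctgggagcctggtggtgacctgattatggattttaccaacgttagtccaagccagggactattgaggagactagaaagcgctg
Afp near upstream site, chr5:90917316-90917615: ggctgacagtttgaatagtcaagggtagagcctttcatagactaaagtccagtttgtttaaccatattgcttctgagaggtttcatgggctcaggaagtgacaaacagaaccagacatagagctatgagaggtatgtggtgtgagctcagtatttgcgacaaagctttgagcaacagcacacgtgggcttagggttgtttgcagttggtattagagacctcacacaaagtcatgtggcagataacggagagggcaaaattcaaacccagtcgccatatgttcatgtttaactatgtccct

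The distribution of peaks was described first. In the block around Alb, Afp and Afm, the TEAD lists of WT, 3 d and 7 d livers had 9, 28 and 31 peaks, and the YAP lists 2, 1 and 4. Around Gc there was no TEAD peak in WT livers, but 13 at 3 d and 9 at 7 d, and no YAP peak in any list. Per 100 kb the block held 4.67, 14.5 and 16.1 TEAD peaks, against 0.305, 1.95 and 2.08 over the genome. When the genome was cut into pieces as long as the block, 0.0365% of pieces held at least 9 summits in the WT list. At least 28 were held by 0.0438% of pieces at 3 d and at least 31 by 0.0219% at 7 d. The block was chosen by its TEAD peak at 7 d, so these shares are a description and not a test. At 7 d the outermost TEAD peaks inside the block had 7.16 and 6.74-fold enrichment, and the nearest ones outside it (5.12 and 4.52-fold) were 103 kb before its first and 37.3 kb after its last base. Around Gc the outermost peaks had 5.42 and 4.48-fold enrichment, and the nearest ones outside 7.07 and 5.89-fold. The Gc interval was less unusual by the same count. At least 13 summits were held by 1.54% of pieces of its length at 3 d, and at least 9 by 5.94% at 7 d. In the WT list 20.1% of these pieces held at least 1 summit, so that most, like the Gc interval, held none.

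The 31 sites of the block were then sorted by the lists they appeared in. TEAD peaks of all 3 lists were found at 9 sites, 7 of them nearest to the start of Alb and 2 to that of 5830473C10Rik. A further 14 sites had a TEAD peak at 3 d and 7 d but not in WT livers, 4 only at 3 d and 4 only at 7 d. Around Gc, 5 of 14 sites were shared by 3 d and 7 d, 6 were seen only at 3 d and 3 only at 7 d. All 9 TEAD peaks of WT livers overlapped a peak at 3 d and at 7 d by at least 1 bp, which 98.4% and 95.4% of all WT peaks did. Conversely, 9 of 40 TEAD peaks at 7 d in both intervals (22.5%) overlapped one in WT livers, against 14.1% of that list. At 3 d 9 of 41 did, against 15.5% of the whole 3 d list. Peaks without a WT counterpart were thus not more frequent here than over the genome. Of the 41 TEAD peaks at 3 d in both intervals 75.6% overlapped one at 7 d, against 75.9% of that whole list, and of the 40 at 7 d 82.5% overlapped one at 3 d, against 71.2%.

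**Figure D1:**
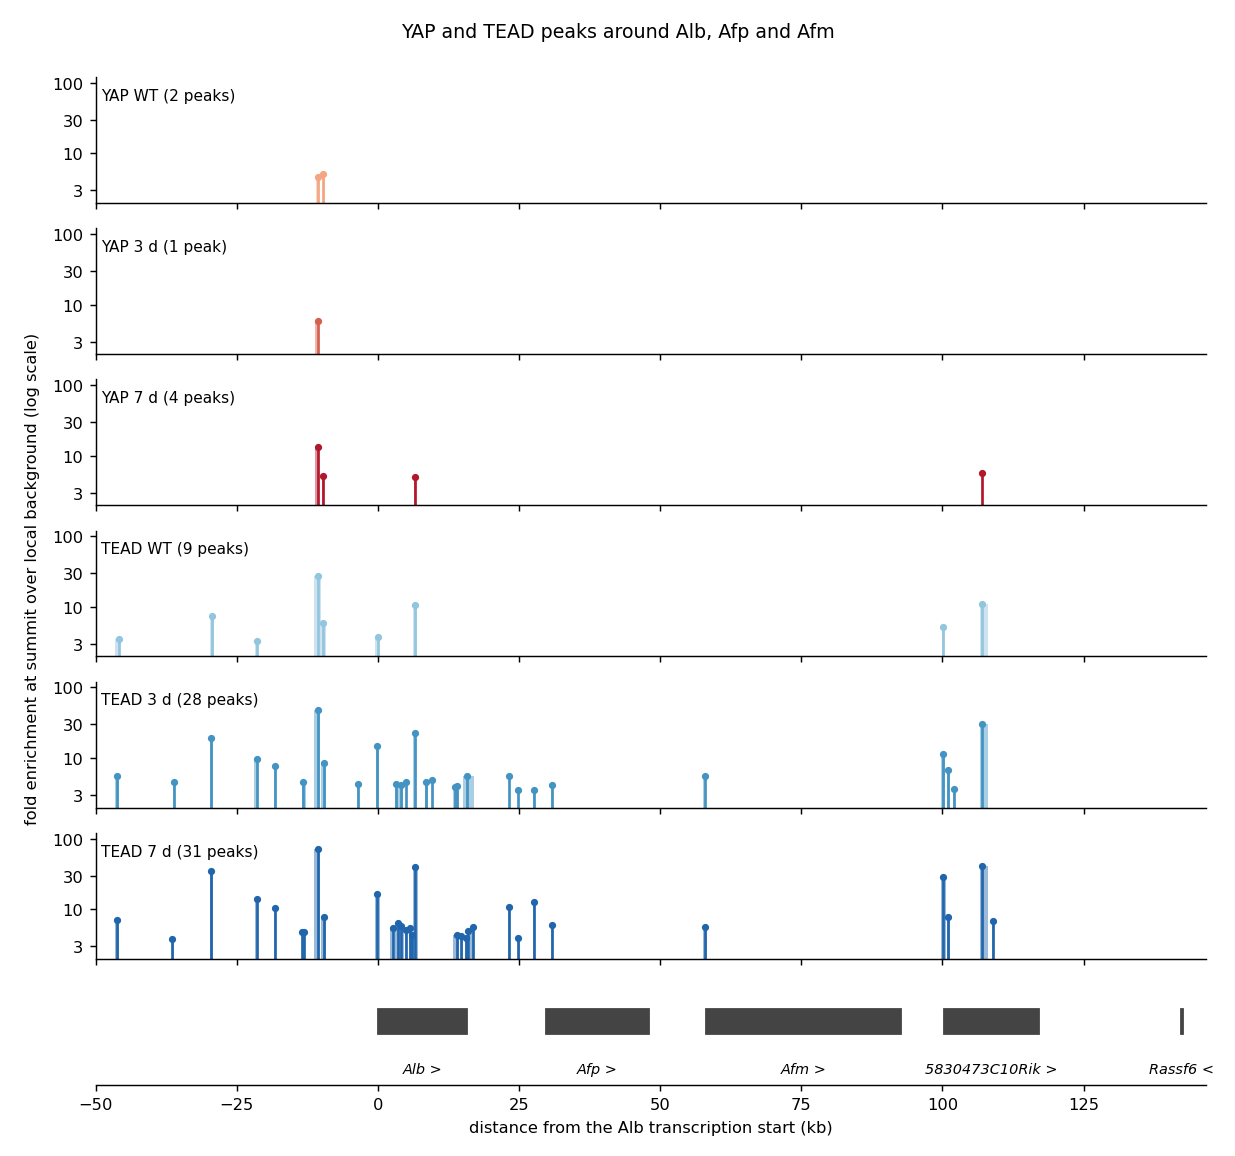
Peaks of the 6 lists around Alb, Afp and Afm. Each stem marks a summit at its distance from the Alb start (kb) with its fold enrichment (log scale), the shading its width, and the bars below the genes with their direction. TEAD peaks crowd upstream of Alb, over its gene body and at 5830473C10Rik, while Afp and Afm carry few and lower ones, and the 4 YAP peaks at 7 d all stand where TEAD peaks stand.

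Most TEAD peaks of the block were weak and a few were very strong. The median fold enrichment, that is the pileup of fragments at the summit over the local background, was 5.98, 5.25 and 5.96 in WT, 3 d and 7 d livers, against 5.05, 5.44 and 7.30 for the whole lists. At 7 d 10 of the 31 peaks reached at least 10-fold, near the share of the whole list (31.3%), and 5 at least 20-fold (9.02%). The latter 5 were 3 sites at and upstream of Alb, among them the site by which the block was chosen, and 2 at 5830473C10Rik.

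The Alb upstream site was the one site with a peak in all 6 lists, and their summits lay within 42 bp. It is intergenic, and at 7 d its summit was 10701 bp before the Alb start, a region where a distal albumin enhancer is known. TEAD enrichment there was 27.05-fold in WT livers (chr5:90878538-90879724, 262 fragments, rank 5 of 5695 by p-value). It was 47.69-fold at 3 d (chr5:90878541-90879594, 330 fragments, rank 7 of 36446) and 72.26-fold at 7 d (chr5:90878550-90879662, 350 fragments, rank 1 of 38984). The site thus stood near the top of every TEAD list, also that of WT livers. YAP enrichment was 4.64-fold in WT livers (chr5:90878912-90879277, 38 fragments), 5.80-fold at 3 d (chr5:90878739-90879478, 39 fragments) and 13.41-fold at 7 d (chr5:90878737-90879459, 77 fragments), where it ranked 8 of 1478. The local background was between 1.12 and 1.39 times the genome mean in the 6 lists.

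The height of this site was compared as scaled pileup, that is fragments at the summit per 1000000 tags of the merged library, with 95% intervals that cover counting error only. The TEAD values are a description, since the site was chosen for its TEAD height at 7 d. For TEAD it was 7.45 (6.58 to 8.41) in WT livers, 6.00 (5.37 to 6.68) at 3 d and 9.09 (8.16 to 10.1) at 7 d. The 7 d value was therefore 1.52 times that of 3 d (1.30 to 1.77), whereas the median over all 27195 matched TEAD peaks was 1.33. Against WT livers the direction at 3 d depended on the measure. The ratio was 0.805 (0.682 to 0.95) in scaled pileup but 1.76 in fold enrichment, because the caller used fragments of 400 bp for TEAD in WT livers and of 207 bp at 3 d. At 7 d the 2 measures gave 1.22 (1.04 to 1.44) and 2.67. The scaled pileup of YAP rose from 0.695 (0.492 to 0.954) in WT livers and 1.08 (0.766 to 1.47) at 3 d to 2.25 (1.77 to 2.81) at 7 d, beyond counting error. This was 3.23 times the WT value (2.16 to 4.90) and 2.09 times the 3 d value (1.4 to 3.15). Of 75 matched YAP peaks 5.33% were at least 1.5-fold higher at 7 d than in WT livers, and 7.79% of 77 at 7 d than at 3 d, with medians of 1.13 and 0.994. With the local background subtracted, these shares were 14.7% and 9.09%, and the ratios at the site 3.81 and 2.33. Matched peaks had to be called in both lists, and the YAP lists of WT and 3 d livers held only 156 and 110 peaks. Of those peaks 42.3% and 58.2% overlapped a TEAD peak of the same livers. YAP sites that gained a peak by 7 d are not in these shares.

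A neighbour about 1 kb closer to Alb behaved differently. The Alb upstream second site lay 9618 bp before the start and had a YAP peak in WT livers (chr5:90880097-90880441, 5.18-fold, 39 fragments) and at 7 d (chr5:90879927-90880406, 5.24-fold, 24 fragments), but none at 3 d. The scaled pileup of YAP was 0.714 (0.507 to 0.975) and 0.701 (0.449 to 1.04), a ratio of 0.982 (0.565 to 1.67). TEAD enrichment was 5.98-fold in WT livers, 8.63-fold at 3 d and 7.78-fold at 7 d, and the TEAD ratio of 7 d to 3 d was 0.873 (0.548 to 1.37). Against WT livers the ratio was 0.669 (0.414 to 1.07) in scaled pileup and 1.30 in fold enrichment. In scaled pileup, YAP at 7 d was not higher than in WT livers, and TEAD at 7 d was not higher than at 3 d or in WT livers, beyond counting error. YAP at 3 d had no peak to compare.

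At 7 d YAP was also found at 2 sites without a YAP peak in the other lists. The first lay in exon 7 of the 15 exons of Alb, 6503 bp into the gene (chr5:90896358-90896616, 5.03-fold, 25 fragments). TEAD enrichment at this site was 10.74-fold in WT livers (85 fragments), 22.30-fold at 3 d (146) and 39.88-fold at 7 d (180), and the 7 d height was 1.76 times that of 3 d (1.41 to 2.21). The second lay in intron 4 of 5830473C10Rik (chr5:90996882-90997131, 5.62-fold, 26 fragments). TEAD enrichment was 10.97-fold, 29.98-fold and 41.16-fold there, with a ratio of 1.37 (1.10 to 1.69). TEAD was thus already present at both in WT livers. Both YAP peaks were close to the limit of detection, since the lowest called pileup was 18 fragments in the 7 d YAP list, 20 at 3 d and 24 in WT livers. The absence of a call at these sites at 3 d and in WT livers therefore does not show that YAP was absent.

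All YAP peaks of the block overlapped a TEAD peak of the same livers, that is 2 of 2, 1 of 1 and 4 of 4. Over the genome 42.3%, 58.2% and 95.2% of YAP peaks did so, in the same order. Conversely, 4 of the 40 TEAD peaks at 7 d (10%) overlapped a YAP peak, against 3.58% of the whole list.

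The promoters, from 2000 bp before to 1000 bp after a start, were considered next. TEAD peaks overlapped the promoter of all 4 genes at 3 d and at 7 d, and only that of Alb in WT livers, while YAP peaks overlapped none. Over all 22380 protein-coding genes, the share with a promoter peak was for TEAD 8.73%, 38.8% and 37.6% in WT, 3 d and 7 d livers, and for YAP 0.0357%, 0.0715% and 1.04%. The Alb promoter had 3.72-fold enrichment in WT livers (chr5:90889436-90890167, 28 fragments), 14.77-fold at 3 d (chr5:90889481-90890079, 90 fragments) and 16.26-fold at 7 d (chr5:90889351-90890182, 69 fragments). Its scaled pileup was 0.796 (0.529 to 1.15), 1.64 (1.32 to 2.01) and 1.79 (1.39 to 2.27), so the 3 d value was 2.05 times that of WT livers (1.33 to 3.26) and the 7 d value 1.10 times that of 3 d (0.789 to 1.52). The gain at the Alb promoter was accordingly seen by 3 d, also in the measure that gives the lower ratio to WT livers. In that measure the median over all 5573 TEAD peaks matched between 3 d and WT livers was 1.19. Of these peaks 22.4% were at least 1.5-fold higher at 3 d. The WT peak at the Alb promoter was close to the limit of detection, since the lowest called pileup of that list was 24 fragments.

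The Afm promoter had 5.58-fold enrichment at 3 d (chr5:90947528-90948102, 34 fragments) and 5.66-fold at 7 d (chr5:90947508-90948147, 24 fragments), with a ratio of 1.01 (0.572 to 1.75). It was the one TEAD site nearest to the Afm start. The Afp promoter peak stood in intron 1 at 3 d (chr5:90920596-90920875, 4.17-fold, 33 fragments) and, 50 bp further, in exon 2 at 7 d (chr5:90920651-90920905, 5.96-fold, 33 fragments), with a ratio of 1.43 (0.855 to 2.39). The Gc promoter had a peak 158 bp before the start, 4.60-fold at 3 d (chr5:89886821-89887139, 28 fragments) and 10.13-fold at 7 d (chr5:89886787-89887130, 43 fragments), or 2.19 times as high in scaled pileup (1.33 to 3.67). A second, wider Gc promoter peak at 7 d, with its summit at 2030 bp (chr5:89887502-89889111, 11.92-fold, 66 fragments), covered 3 peaks of 3 d. Those had 4.31-fold (chr5:89887629-89887851), 9.36-fold (chr5:89887921-89888390) and 5.81-fold enrichment (chr5:89888495-89888964). Against the nearest of them, the last, the 7 d height was 2.14 times as high (1.44 to 3.21), and against the strongest of them 1.65 times (1.14 to 2.40). The strongest Gc site at 7 d was upstream, 10358 bp before the start (chr5:89896879-89897402, 12.49-fold, 53 fragments), where the ratio was 1.99 (1.29 to 3.11).

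**Figure D2:**
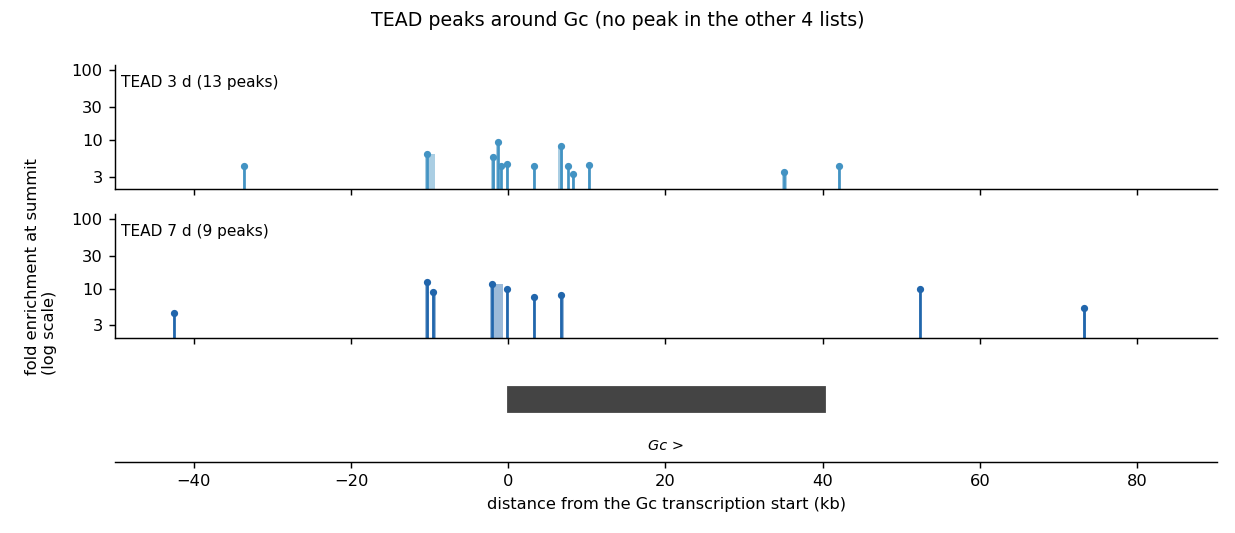
TEAD peaks around Gc at 3 d and 7 d, by distance of the summit from the Gc start (kb) and fold enrichment (log scale). The plot is turned so that Gc reads from left to right. Peaks gather within about 10 kb of the start, and the ones at and upstream of the promoter stand higher at 7 d, where the highest reaches 12.49-fold.

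Afp is of interest as the fetal member. No YAP list and no WT list had a peak nearest to its start, and the gene body held the 1 TEAD peak at its promoter. Upstream, TEAD formed 4 sites assigned to the Afp start. The farthest extended into the last part of Alb, where 2 further peaks of 7 d had their summits in an intron. It had 5.64-fold enrichment 14046 bp before Afp at 3 d, and at 7 d its intergenic peaks had 4.87-fold at 13968 bp and 5.66-fold at 12972 bp. The other 3 sites, all intergenic, stood closer, at distances where the upstream enhancers of Afp are known. The far site, 6575 bp before the start at 7 d, had 5.58-fold enrichment at 3 d (chr5:90913040-90913276, 34 fragments) and 10.84-fold at 7 d (chr5:90912967-90913356, 46 fragments), a ratio of 1.93 (1.21 to 3.10). The middle site, at 4998 bp, was weak at both times, with 3.54-fold (chr5:90914674-90914924, 28 fragments) and 3.94-fold (chr5:90914654-90915025, 20 fragments), and a ratio of 1.02 (0.545 to 1.88). The near site, at 2274 bp, went from 3.56-fold (chr5:90917394-90917645, 27 fragments) to 12.85-fold (chr5:90917287-90917719, 80 fragments). Its height rose 4.23 times (2.71 to 6.81), and its local background was 1.25 and 1.47 times the genome mean. This was the highest ratio of 7 d to 3 d among the 28 matched TEAD sites of both intervals. Thus the far and the near site gained height beyond counting error between 3 d and 7 d, while the interval of the middle site held 1. The intervals of the far and the middle site overlapped, so a difference between these was not shown. The median over all 27195 matched peaks was 1.33, which lay within the interval of the far site and below that of the near site. At 3 d the near and the middle site were close to the limit of detection, since the lowest called pileup was 20 fragments.

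**Figure D3:**
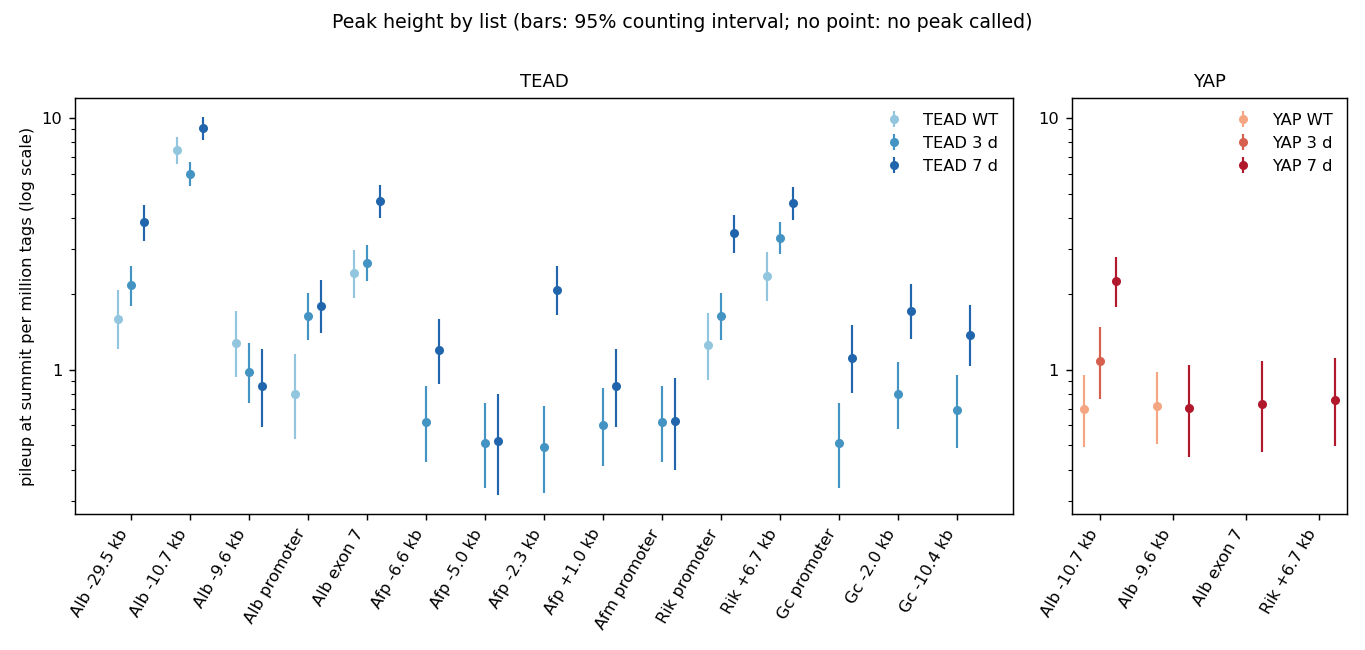
Scaled pileup at the summit (fragments per 1000000 tags, log scale) at named TEAD sites (left) and at the 4 YAP sites (right), with 95% counting intervals. Rik stands for 5830473C10Rik, and a missing point means that no peak was called. YAP at the Alb upstream site is set apart at 7 d (2.25, against 0.695 in WT livers), and TEAD at the near Afp site went from 0.491 at 3 d to 2.08 at 7 d.

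TEAD height also rose at 2 other strong sites of the block. The site 29534 bp before Alb had 7.44-fold enrichment in WT livers, 19.53-fold at 3 d and 34.23-fold at 7 d, with a ratio of 1.78 (1.39 to 2.28). The promoter of 5830473C10Rik had 5.22-fold, 11.38-fold and 29.05-fold, with a ratio of 2.13 (1.62 to 2.81). Both were above the median of all matched peaks beyond counting error.

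Over the 28 TEAD sites of both intervals with a matched peak at 3 d and 7 d, the ratio in scaled pileup ran from 0.806 to 4.23 with a median of 1.4. At least 1.5-fold higher at 7 d were 10 sites, and none was 1.5-fold lower. Among all 27195 matched peaks 34.3% were at least 1.5-fold higher and 0.743% lower, and the median was 1.33, so that the sites as a group stood near the background. The counting interval lay above 1 at 12 sites and held 1 at 16. It lay above the median of all peaks at 5 sites, namely the near Afp site, the 5830473C10Rik promoter, the Gc promoter site at 2030 bp, the Alb site at 29534 bp and the Alb exon 7 site. For the Gc promoter site this does not hold against the strongest 3 d peak it covers, where the interval held 1.33. How often the intervals of all 27195 matched peaks lay above 1 or 1.33 was not computed. The counts of 12 and 5 sites therefore have no background beside them.

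**Figure D4:**
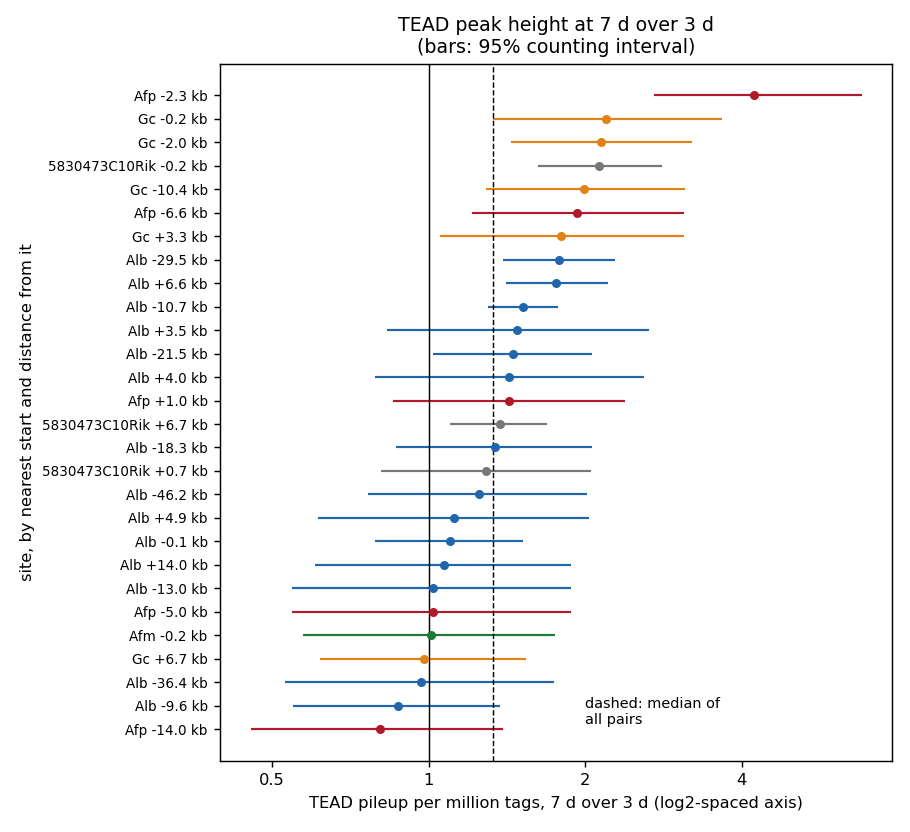
Ratio of scaled TEAD pileup at 7 d over 3 d (log2-spaced axis) at the 28 matched sites, ordered by ratio and coloured by the nearest gene, with 95% counting intervals. The solid line marks 1 and the dashed line the median of all matched peaks, 1.33. The near Afp site stands alone at 4.23, 4 of the 5 Gc sites lie between 1.80 and 2.19, and the lowest sites span 1. Among these Gc sites, the wide promoter peak is plotted at 2.14 and has 1.65 against the strongest 3 d peak it covers.

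Against WT livers, 9 sites could be matched. In fold enrichment the 7 d value was at least 1.5-fold higher at 8 of 9 (92.4% of all 5409 matched peaks), with a median of 3.75 against 3.14. In scaled pileup it was so at 6 of 9 (59.0%), with a median of 1.94 against 1.66. The largest gain was at the 5830473C10Rik promoter, with 5.57 and 2.78 (1.96 to 4). The lowest ratios were at the second Alb upstream site, with 1.30 in fold enrichment and 0.669 (0.414 to 1.07) in scaled pileup, which is no gain. Sites with a matched peak had to be called in both lists, so sites that gained a peak are not in these ratios.

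The body of Alb differed from that of its neighbours. The share of the gene under TEAD peaks was 5.54%, 29.9% and 37.3% in WT, 3 d and 7 d livers. Among 13506 protein-coding genes of at least 10 kb, Alb ranked 3 at 3 d and 1 at 7 d, where the median gene was covered over 0.333% and 0.364%. Only 0.0222% and 0.0074% of these genes were covered at least as much. The ranks and shares are a description, since Alb was chosen by the TEAD list of 7 d. In contrast to Alb, TEAD peaks at 7 d covered 1.4% of Afp, 0.549% of Afm, 2.05% of Gc and 15.4% of 5830473C10Rik. Besides the promoter and the exon 7 site, the peaks in Alb were low. There were 8 at 3 d with 3.93 to 5.64-fold enrichment and 9 at 7 d with 3.99 to 6.36-fold. By p-value the latter stood between the top 64.4% and the top 98.4% of their list. The 4 of these that could be matched within the gene had ratios of 7 d to 3 d between 1.07 and 1.48, and each interval held 1. They lay in both introns and exons. The control library came from published data and not from these livers, and the local background at these peaks was at most 1.36 times the genome mean at 7 d. Its part in these peaks was not tested.

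The sequences at the summits were then searched on both strands. A TEAD match (GGAATG) lay within 150 bp of the summit of 14 of the 40 TEAD peaks at 7 d in both intervals (35.0%, against 39.0% of the whole list), of 4 of 9 in WT livers (44.4%, against 53.6%) and of 3 of 4 YAP peaks at 7 d (75%, against 64.6%). A FOXA match (TGTTTAC or TGTTTGC) was present at 12 of 40 TEAD peaks at 7 d (30%, against 16.6%). HNF4 (CAAAGTCCA), C/EBP (TTGCNNAA) and AP-1 (TGANTCA) matches were present at 1, 9 and 3 of the 40, or 2.5%, 22.5% and 7.5%, against 2.02%, 19.5% and 11.9% of the whole list. HNF1 and NF1 matches were present at none of the 40 and at 0.0359% and 0.0642% of the list. These are matches of letters only, and a window without one says nothing of the factor.

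Matches at the summit went with the strong peaks. All 4 TEAD peaks at 7 d of at least 30-fold, at Alb upstream, Alb exon 7, the 5830473C10Rik intron and 29534 bp before Alb, had GGAATG within 25 bp of the summit. Only 3 of the other 36 did. Over the genome 54.0% of 1286 peaks of at least 30-fold had such a match, and 18.8% of all 38953 placed peaks. At the lower limit of 20-fold, 4 of 5 peaks had one, against 44.9% of 3518 over the genome. In the Alb upstream site printed above, GGAATG began 19 bases before the summit and its reverse complement 5 bases after it, with a FOXA match close by. In the Alb exon 7 site GGAATG began 1 base after the summit, and in the 5830473C10Rik intron 14 bases before it. The Alb upstream second site held no TEAD match, and neither did the near or the far Afp site or the Alb and Gc promoter sites.

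**Figure D5:**
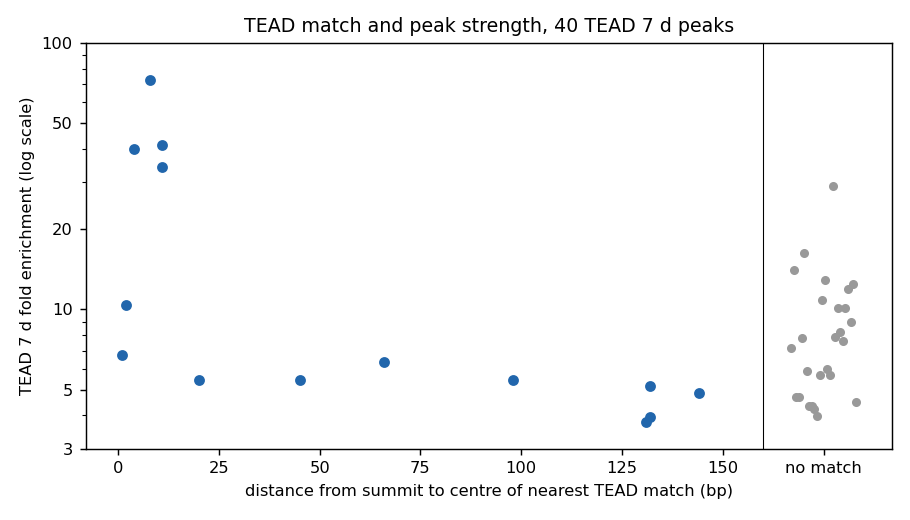
Fold enrichment of the 40 TEAD peaks at 7 d (log scale) by the distance from the summit to the centre of the nearest TEAD match (bp), with peaks lacking a match within 150 bp on the right in grey. The 4 peaks above 30-fold stand within 11 bp of a match, whereas the strongest peak without one reaches 29.05-fold.

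Other plasma protein genes and the regulators of Alb and Afp gave a wider view. Of 24 plasma protein genes, 18 had a TEAD peak within 50 kb in WT livers and all 24 at both later times, against 37.8%, 75.3% and 77.0% of all protein-coding genes. A TEAD peak lay at the promoter of 7, 24 and 22 of them in WT, 3 d and 7 d livers, against 8.73%, 38.8% and 37.6% of all protein-coding genes. YAP peaks lay within 50 kb of 4 of the 24 at 7 d (Apoa2, Apob, Apoe and Hp), against 10.8% of all genes, and of none in WT livers or at 3 d (0.21% and 0.264%). The members had YAP within 50 kb at 2, 2 and 3 of 4, but these windows overlap and share the same peaks. The 4 plasma protein genes with the highest TEAD enrichment at 7 d were Cp (ceruloplasmin, 48.07-fold), Apoe (40.29-fold), Trf (transferrin, 35.87-fold) and Plg (plasminogen, 24.98-fold).

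Of 14 regulators, 9 had a TEAD peak within 50 kb in WT livers (37.8% of all protein-coding genes did) and all 14 at 3 d and 7 d (75.3% and 77.0%). YAP was found at 5 of them at 7 d (10.8% of all genes), among them Cebpb, Hnf4a, Nfia and Zbtb20, the last a known repressor of Afp. YAP was found at none of the 14 in WT livers or at 3 d. TEAD enrichment at 7 d was high near Cebpa (46.92-fold), Cebpb (37.72-fold) and Nfia (31.79-fold). Both lists were drawn up with earlier results of these data known and are given as counts.

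Few genes had the pattern of Alb. When summits were given to the nearest protein-coding start within 50 kb, 10 genes had a peak in all 6 lists. Over the 6 lists the nearest to Alb by Euclidean distance of log2(1 + highest fold enrichment) were D5Ertd579e (1.94), Trpm8 (2.14), Pelo (2.70), Fbxw11 (2.97) and Tspan4 (2.97). D5Ertd579e went from 9.10 to 28.56 and 50.99-fold for TEAD, and YAP enrichment was 5.60, 6.18 and 6.75-fold. Pelo was the nearest in TEAD strength at 7 d, with 65.27-fold. Pelo, Fbxw11 and Tspan4 had no YAP peak in WT livers and are thus not among the 10 genes.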

How the data were processed

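Livers were analysed as 19 samples in 6 groups, taken from the sample labels. According to the submitters' processing notes and the study's methods, the authors aligned the reads to mm9 with BWA 0.6.2, merged the replicates of a group, and called peaks with MACS2 2.0.9, per the file headers at a p-value of 1e-05 against 1 control library of 167176362 tags. The merged libraries held 34260362 to 55032002 tags. Pileup, as deposited, is a signal that counts extended fragments over the summit. The deposited fold enrichment is the ratio of pileup to local background, and the authors' −log10 p-values and q-values come from the same caller. Fragments were extended to 250 bp for YAP, and, for TEAD, to 400 (WT), 207 (3 d) and 206 bp (7 d), per the file headers. The length differs most for the WT list, so ratios to it are given on 2 scales.

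Pileup per 1000000 tags was given with an exact Poisson interval, and ratios with an exact conditional binomial interval, at 95%. These cover counting error of the merged libraries only. Peaks of 2 lists were matched where they overlapped by at least 1 bp and each was the nearest of the other by summit. Annotation and sequence were GENCODE and the genome of NCBIM37 (mm9), and all 82737 peaks on its 21 chromosomes ended within them, while 132 peaks on other sequences were not placed. Peaks named in full were each YAP peak, each peak at a promoter of the 4 genes, and the strongest 2 of each list in the block and 1 around Gc. The sites 29534 bp before Alb, at the promoter of 5830473C10Rik and upstream of Afp were named after their values were seen. From the gene lists, the 4 genes with the highest TEAD enrichment at 7 d and the 5 most like Alb were named, except for 1 gene that is not reported here. Members and lists were chosen with earlier results of these data known. Python 3.11.15, pandas 2.3.3, NumPy 2.4.6, SciPy 1.17.1 and Matplotlib 3.10.9 were used, and the steps were tested on simulated data. Alternatives covered flank, thresholds, overlap, the scale of ratios and the motif window.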

Additional observations from a re-analysis of the deposited data

How the results depend on the processing

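No paired analysis was possible because the authors merged the replicates of each group before peaks were called, and leaving out a replicate was not run for the same reason. Of 95 values recomputed for the main counts and ratios, 80 stayed within 1.5 times of the value given. With peaks of at least 5-fold enrichment only, the block held 1 YAP peak in WT livers and 14 TEAD peaks at 3 d, and the Gc interval 4 TEAD peaks at 3 d. With a −log10 p-value of at least 10 the Gc interval held 7 TEAD peaks at 3 d, and 20 TEAD peaks at 3 d overlapped one at 7 d, as did 20 the other way round. Flanks of 20 or 100 kb moved no count of peaks in the block or the Gc interval, and other overlap rules no count of shared peaks, by more than 1.5 times. The ratios of 7 d to 3 d at the 28 TEAD sites stayed within their intervals on every scale. The match of the wide Gc promoter peak to the strongest 3 d peak was added after the data were seen and gave 1.65 in place of 2.14. Against WT livers the median of 1.94 became 3.75 in fold enrichment and 3.76 per base of fragment length, since the fragment length of the WT list was 400 bp, and all 9 sites moved out of their intervals with both. Within 20 kb YAP at 7 d was found at 2 of 24 plasma protein genes and 3 of 14 regulators, against 6.33% of all protein-coding genes. At promoters it was found at 0 and 1, against 1.04%. Within 50 bp of the summit, 8 of the 40 TEAD peaks at 7 d had a TEAD match (20%, against 27.7% of the list) and 5 a FOXA match (12.5%, against 6.94%). With the highest enrichment within 50 kb of a gene, 2 of the 5 genes most like Alb remained, D5Ertd579e and Trpm8. By that rule 27 genes had a peak in all 6 lists, in place of 10. A pileup of 16 to 24 fragments was the lowest called in the 6 lists, which limits weak sites.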
